A study of Homo sapiens with 4 samples.

Results

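Interferon-stimulated genes were examined in HT-29 and NCM460 cells with and without sturgeon chondroitin sulfate (SCS), a sulfated polysaccharide. The set holds 40 genes chosen by name, with earlier results of these data known, and all 40 were found in the deposited table. IFITM1 and IFITM2 carry identical values there, so the 40 genes make 39 loci of the 18650 loci with at least 1 fragment. HT-29 cells come from a human colorectal cancer, and NCM460 is a human colon epithelial line. Each line was sequenced once without SCS (control) and once after 24 h with 100 μg/mL SCS, which gives 4 libraries. With 1 library per condition there was no replicate check within a condition, and no p-value is given for a comparison of single libraries. Tests over all 4 libraries are given as calls at a false discovery rate. The HT-29 libraries held 1654764 fragments (control) and 1605372 (SCS), and the NCM460 libraries 1347853 (control) and 1156567 (SCS). Mitochondrial transcripts took 35.8% and 13.8% of the HT-29 fragments and 62.3% and 46.3% of the NCM460 fragments, control first. This left 1061700 and 1383424 nuclear fragments for HT-29, and 507692 and 621582 for NCM460.

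Interferons are secreted proteins that bind cell surface receptors and start a JAK-STAT cascade. In the type I and type III pathways a complex that holds STAT2 and IRF9 binds the interferon-stimulated response element in promoters, and the genes switched on there encode RNA sensors, RNA-degrading and translation-blocking enzymes, membrane proteins and ubiquitin-like modifiers. Epithelial cells of the gut use this programme as an antiviral barrier, and many of the genes keep a low level without interferon.

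Values of a line are given with the control first and SCS after it. Fragments are raw and the libraries differ in depth, so changes were computed from CPM (counts per 1e6 fragments) after TMM scaling, which sets the libraries against each other through loci that differ little. A change is a log2 fold change of CPM with a prior count of 2, given with its 95% counting interval, an exact Clopper-Pearson interval that covers counting error only. A locus was compared where its mean over both libraries reached 1 CPM. It was called higher or lower when the change passed 1.5-fold and the interval excluded 0, and "rose" and "fell" refer to such calls. The floor of detection was set at 3 fragments, which is 2.83 and 2.17 CPM of the nuclear fragments in HT-29 and 5.91 and 4.83 CPM in NCM460. A ratio to a library at 0 fragments is given as a lower bound, computed against 3 fragments of that library under TMM scaling.

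Detection differed between the lines. Of the 39 loci, 36 and 37 were above the floor in HT-29, and 15 and 19 in NCM460. XAF1, an antagonist of inhibitors of apoptosis, did not exceed 3 fragments in any of the 4 libraries. With XAF1, 19 loci did not exceed the floor in either NCM460 library, and the others were IFI27, IFI35, IFI44, IFI44L, IFIT1, IFIT2, IFIT3, OAS1, OAS2, MX1, DDX58, IFIH1, DDX60, BST2, GBP1, GBP2, PARP9 and SAMD9. All of these others exceeded it in at least 1 HT-29 library. In percent, 92.3% and 94.9% of the interferon-stimulated loci were above the floor in HT-29, beside 59.5% and 61.7% of all loci. In NCM460 it was 38.5% and 48.7%, beside 48.0% and 56.3% of all loci. At this depth a locus at 0 in NCM460 was not detectable, which does not show that it is silent. In bulk RNA, fewer cells with a transcript and less transcript per cell cannot be told apart.

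**Figure D1:**
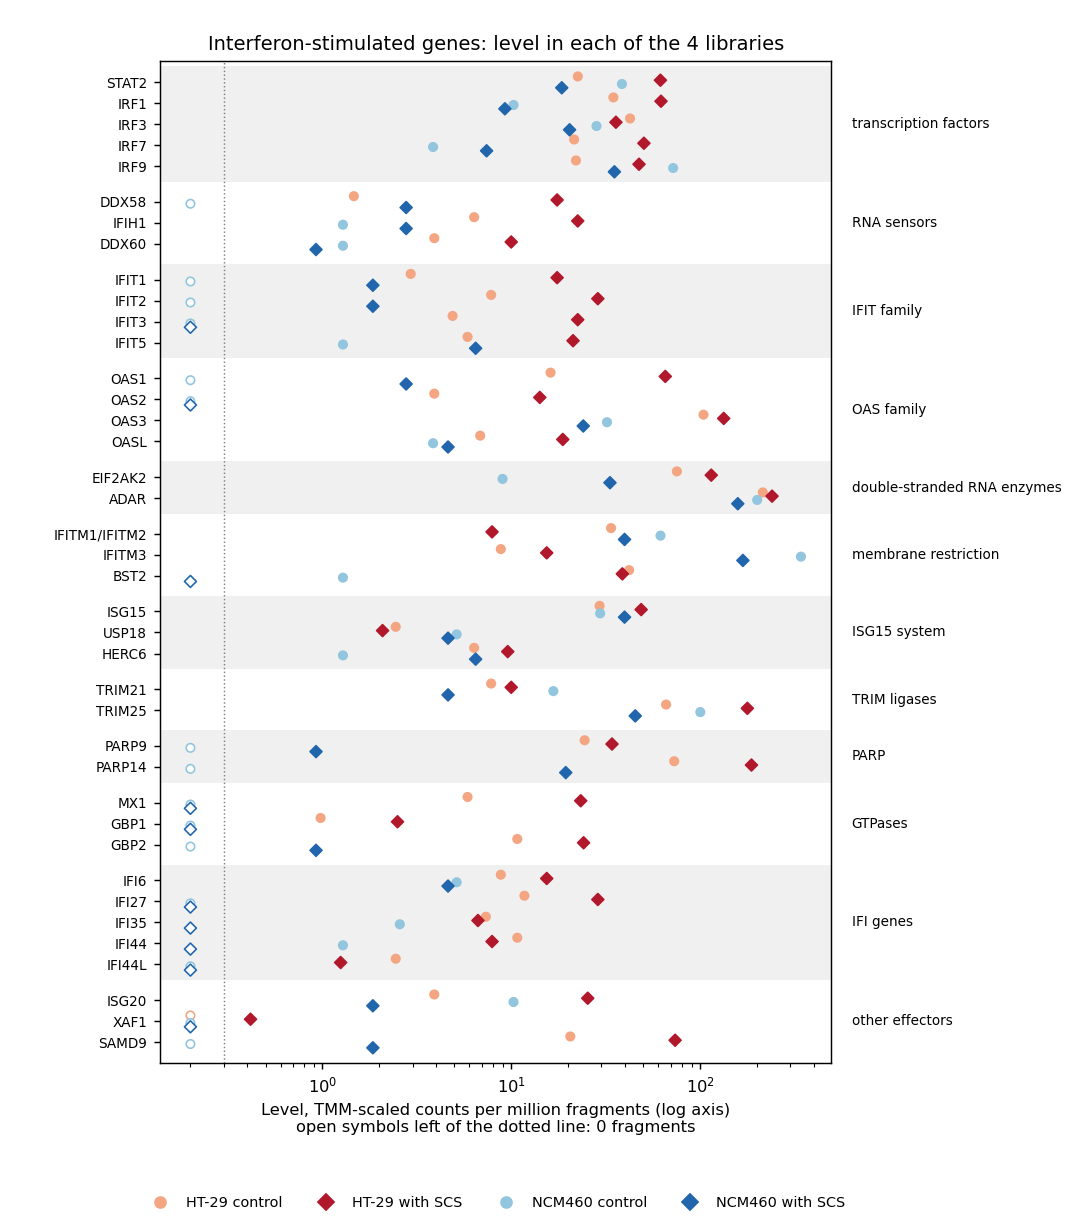
Level of each interferon-stimulated locus in each of the 4 libraries, in TMM-scaled CPM on a log axis, grouped by role. Circles are control libraries and diamonds are libraries with SCS, red for HT-29 and blue for NCM460, and open symbols mark 0 fragments, which was the case for 15 loci of NCM460 without SCS and for 10 with it.

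The summed level of the 39 loci was 974 and 1723 CPM in HT-29, and 978 and 669 CPM in NCM460. The near-equal sums of both controls had different makeups. The IFITM loci, which encode small membrane proteins that hinder virus entry, made 4.37% and 1.35% of the sum in HT-29, and 41.2% and 31.1% in NCM460. Without them, the other 37 loci summed to 932 and 1699.9 CPM in HT-29, and to 575 and 460.5 CPM in NCM460. In deposited FPKM, a level per transcript length, ISG15 was the highest locus in both HT-29 libraries, at 51.9 and 72.0 FPKM. IFITM3 was the highest in both NCM460 libraries, at 416 and 206 FPKM. The 5 loci with the highest mean FPKM over the libraries were IFITM3, ISG15, IFITM1/IFITM2, ADAR and IRF9.

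Of the 38 members with chromosome coordinates in the table, 16 stand within 200 kb of another member, in 6 clusters. The IFIT genes IFIT2, IFIT3, IFIT1 and IFIT5 share chr10:89301955-89421001 (GRCh38). IFITM2, IFITM1 and IFITM3 share chr11:307631-327537, and OAS1, OAS3 and OAS2 share chr12:112906777-113011723. The smaller clusters hold GBP1 with GBP2, IFI44L with IFI44, and PARP9 with PARP14. IRF7 and IFI27 are placed on alternate scaffolds, and no coordinates are given for them.

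Promoter sequences are shown because many members moved together, and the core of the interferon-stimulated response element can be read in them. The core searched was GAAA and GAAA with 2 bases between, on both strands, and overlapping matches were counted separately. RefSeq's promoter table (GRCh38.p14) has a window of 300 bases, from 250 before to 50 after a gene's start, for 31 of the 40 members. IFIT2, IFITM2, OAS2, OASL, IRF3, IRF7, DDX58, GBP2 and USP18 have no entry. The core was found for 22 of the 31 (71.0%), where a match in any window of a gene counts and 7 genes have several windows. Counted by window, it was in 26 of 40 windows of the members (65.0%) and in 1255 of all 35116 windows (3.57%). Among members that rose with SCS in HT-29 it was found for 12 of 17 (70.6%), and among the other members for 10 of 14 (71.4%). A match describes the letters and is not evidence of a bound site. The windows of IFI35, OAS1, STAT2, IRF1, IRF9, XAF1, HERC6, TRIM25 and ADAR did not hold these letters.

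The stretches printed here are 60 bases long, run 5′ to 3′ on the gene's strand, and have the matches in capitals. They are from members with large changes or large differences between the lines, and from ISG15, which is shown for its level. Those of IFIT1 (chr10:89392482-89392541), ISG15 (chr1:1013359-1013418), ISG20 (chr15:88638922-88638981), MX1 (chr21:41420544-41420603) and PARP14 (chr3:122680785-122680844) are on the plus strand. Those of SAMD9 (chr7:93118081-93118140), IFITM3 (chr11:320878-320937) and BST2 (chr19:17405726-17405785) are on the minus strand.
IFIT1: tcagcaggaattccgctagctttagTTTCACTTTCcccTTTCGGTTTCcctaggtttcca
ISG15: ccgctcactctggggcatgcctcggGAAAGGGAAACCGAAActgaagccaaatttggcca
ISG20: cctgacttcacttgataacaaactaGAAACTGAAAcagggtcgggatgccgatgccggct
MX1: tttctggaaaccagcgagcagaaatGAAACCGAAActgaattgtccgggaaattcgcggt
PARP14: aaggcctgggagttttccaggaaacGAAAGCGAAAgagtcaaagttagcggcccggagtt
SAMD9: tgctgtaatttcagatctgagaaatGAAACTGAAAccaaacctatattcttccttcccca
IFITM3: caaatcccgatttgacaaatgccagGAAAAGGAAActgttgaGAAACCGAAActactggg
BST2: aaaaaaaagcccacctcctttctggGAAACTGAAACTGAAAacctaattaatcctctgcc
IFIT1 has its 2 matches on the opposite strand, where they read as TTTC repeats, and the first lies 116 bases before the start. ISG15 and BST2 have 2 overlapping matches each, from 113 and 130 bases before the start. In MX1 the match begins 11 bases after the start.

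In HT-29 cells most members were higher with SCS. Of the 39 loci 38 were compared, 31 with a positive and 7 with a negative log2 fold change. Of these 23 rose (60.5%), where 16.8% of all 12168 compared loci did, and 1 fell (2.63%), where 14.8% of all loci did. The median log2 fold change of the 38 loci was 1.09, and that of all compared loci was 0.07. Above the floor in both libraries were 35 of the 38 loci, of which 22 rose and 1 fell. The rises covered the RNA sensors, all IFIT genes, most OAS genes and interferon regulatory factors, and the GTPases MX1 and GBP2, and the fall was that of IFITM1/IFITM2. Of the 23 rises, 16 kept their call in all 9 alternative settings in which each locus was followed.

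In NCM460 cells members were called in both directions, more of them lower than higher. Of the 39 loci 25 could be compared, 10 positive and 15 negative, and 14 were too low. PARP14 and EIF2AK2 rose, which is 2 of 25 (8%) beside 15.3% of all 12657 compared loci. Against this, 7 of 25 fell (28%) beside 13.7% of all loci, and these were IFITM1/IFITM2, IFITM3, ISG20, STAT2, IRF9, TRIM21 and TRIM25. The median log2 fold change was -0.12, or -0.11 with loci at 0 set to their bound, and 0.03 for all compared loci. Above the floor in both libraries were 14 of the 25, with 2 positive and 12 negative values, 1 rise, 6 falls and a median of -0.41. Changes with SCS in NCM460 followed the GC content of transcripts, with a Spearman rho of -0.64 across 12600 loci, and genes are not independent replicates. The rho was -0.12 for SCS in HT-29. After subtraction of the GC trend 2 members were higher and 3 lower in NCM460, beside 6% and 6.42% of all loci. In HT-29 23 were then higher and 1 lower, beside 14.5% and 16.1%. With library totals as the only scaling, 5 members were higher and 0 lower in NCM460, beside 32.6% and 2.05% of all loci, whose median shifted to 0.63. Totals and TMM each apply a single factor to all loci of a library, and which is closer to the true levels was not tested. The NCM460 falls thus depend on the scaling chosen. Whether the response differs between the lines was not tested.

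A test over all 4 libraries did not call a member for SCS. With cell line as a block, edgeR's quasi-likelihood test has 1 residual degree of freedom and looks for a change that both lines share. At a false discovery rate of 5% it called 0 of 36 member loci in either direction, beside 0.0309% of all 12942 loci higher and 0.0386% lower. DESeq2 gave an adjusted p-value to 4 of the 36 only (IFITM3, OAS3, TRIM25 and ADAR) and called 0 of these, so it says nothing of the other members. The rises in HT-29 and the calls in NCM460 thus rest on 1 pair of libraries each, with counting error only. Between the lines, with SCS as a block, edgeR called 18 of the 36 loci higher in HT-29 (8% of all loci) and 1 lower (8.21% of all loci). DESeq2 gave 33 of the 36 an adjusted p-value and called 8 higher and 1 lower. Of all 10182 loci with such a value it called 330 higher and 545 lower. The 1 lower locus was IFITM3 with both tools, and the 8 were IFI27, OAS1, OAS3, BST2, PARP9, PARP14, SAMD9 and EIF2AK2, all among the 18 of edgeR. Most of the 18 did not exceed the floor in either NCM460 library, and of the 8 this holds for IFI27, OAS1, BST2, PARP9 and SAMD9. Such loci passed the filter through HT-29 and could be called in that direction only. The control and SCS libraries of a line stand in for replicates in this test, and neither repeats the other.

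**Figure D2:**
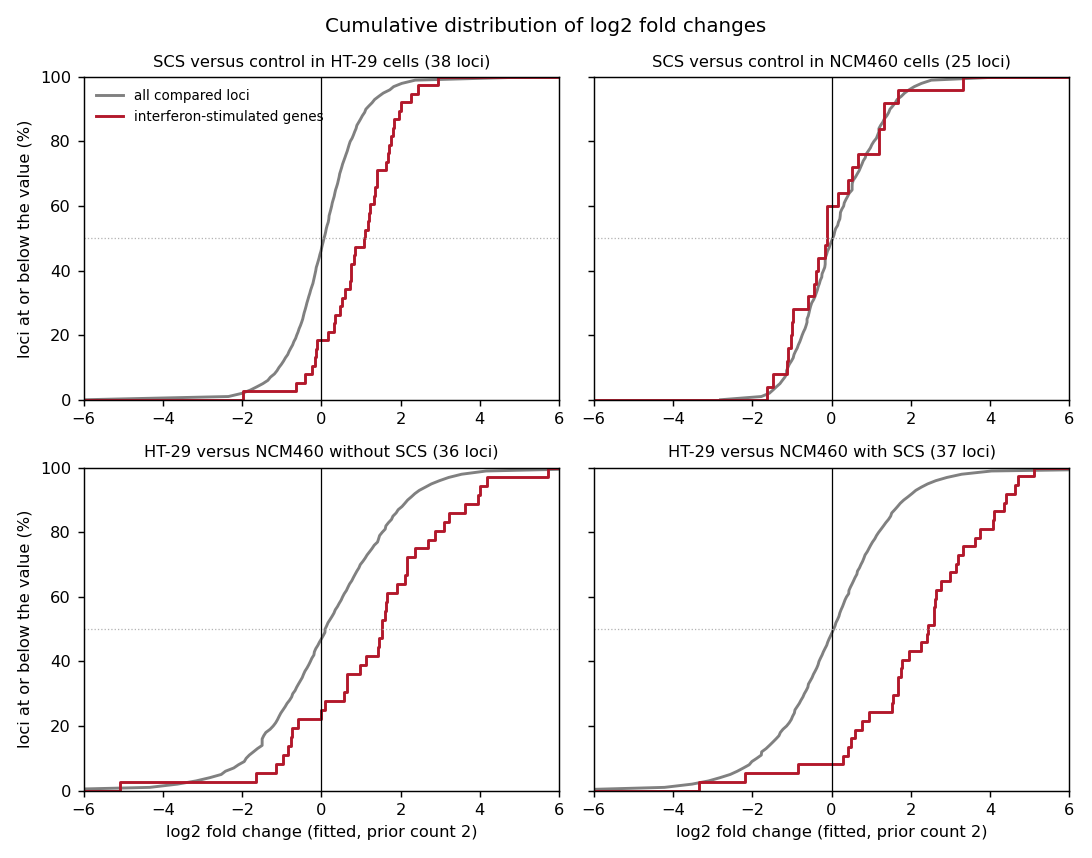
Cumulative share of loci (vertical axis, percent) at or below each log2 fold change (horizontal axis), for the compared interferon-stimulated loci in red and all compared loci in grey, in the 4 comparisons. The red curve lies right of the grey one for SCS in HT-29 (medians 1.09 and 0.07) and close to it for SCS in NCM460 (medians -0.12 and 0.03), with loci at 0 in a library entered at fitted values.

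Of the 5 transcription factors 4 rose in HT-29, where 16.8% of all compared loci did. In NCM460 0 rose and 2 fell, beside 15.3% and 13.7% of all compared loci. STAT2, which carries the activation domain of the interferon-activated complex, had 46 and 148 fragments in HT-29 and 30 and 20 in NCM460. It rose in HT-29 by 1.42 (0.97 to 1.96) and fell in NCM460, at -0.98 (-1.95 to -0.19). IRF9, the DNA-binding subunit of that complex, had 45 and 114 fragments in HT-29 and 56 and 38 in NCM460. It rose in HT-29 by 1.08 (0.60 to 1.64) and fell in NCM460, at -0.99 (-1.67 to -0.41). After scaling, STAT2 was highest in HT-29 with SCS (61.6 CPM) and IRF9 in the NCM460 control (71.9 CPM). The NCM460 fall of IRF9 was not called after GC correction (-0.53), that of STAT2 was (-0.89), but not at equal nuclear depth (-0.83) or on deposited FPKM (-0.56). Neither was called with totals only (-0.33 and -0.34). The values of IRF9 are shared with the overlapping RNF31, so the part of each gene is not known.

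IRF7, which amplifies interferon production, had 44 and 121 fragments in HT-29 and rose (1.19, 0.72 to 1.76). In NCM460 it had 3 and 8 fragments and was not called (0.67, -1.12 to 3.49). IRF1, a factor induced by interferon gamma, had 71 and 149 fragments in HT-29 and 8 and 10 in NCM460. It rose in HT-29 (0.82, 0.42 to 1.27), a call lost on deposited FPKM, and its NCM460 value was -0.12 (-1.64 to 1.39). IRF3, made constitutively in most cells and activated by phosphorylation, had 87 and 86 fragments in HT-29 and 22 and 22 in NCM460 and was not called with SCS in either line. The summed level of the 5 factors was 143 and 257 CPM in HT-29, and 153 and 90.6 CPM in NCM460.

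All 3 cytosolic RNA sensors of the set rose in HT-29, where 16.8% of all compared loci did. DDX58, which encodes RIG-I (chr9:32455705-32526324), had 3 and 42 fragments in HT-29 and 0 and 3 in NCM460. Its HT-29 change of 2.96 (1.93 to 5.91) was the highest of the 23, and its control was at the floor. IFIH1, which encodes MDA5, had 13 and 54 fragments in HT-29 and 1 and 3 in NCM460, and rose in HT-29 by 1.69 (0.93 to 2.82). DDX60, a helicase linked to RIG-I signalling, had 8 and 24 fragments in HT-29 and 1 and 1 in NCM460. Its HT-29 change of 1.18 (0.15 to 2.72) lost its call after GC correction and at equal nuclear depth. In NCM460 no sensor exceeded the floor in either library, so no change could be read there.

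The IFIT family, cytosolic proteins that bind foreign RNA and hinder its translation, rose as a whole in HT-29, where 16.8% of all loci did. IFIT1 had 6 and 42 fragments in HT-29 and 0 and 2 in NCM460, with a HT-29 change of 2.26 (1.33 to 4.10). IFIT2 had 16 and 69 fragments in HT-29 and 0 and 2 in NCM460, with 1.76 (1.08 to 2.76) in HT-29. Both were low in NCM460 under both conditions, and only their HT-29 values carry a comparison. IFIT3 had 10 and 54 fragments in HT-29 and 0 and 0 in NCM460, with 2.01 (1.21 to 3.34) in HT-29. IFIT5 had 12 and 51 fragments in HT-29 and 1 and 7 in NCM460, with 1.71 (0.93 to 2.90) in HT-29 and 1.33 (-0.63 to 7.83) in NCM460, where it was not called. The HT-29 call of IFIT1 was lost at equal nuclear depth, and those of the other 3 held in all 9 alternatives. The family summed to 21.5 and 89.9 CPM in HT-29, and to 1.28 and 10.2 CPM in NCM460.

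The OAS family senses double-stranded RNA, and its enzymes make the messenger that activates RNase L. OAS1 (chr12:112906777-112933222) had 33 and 157 fragments in HT-29 and 0 and 3 in NCM460, and rose in HT-29 by 1.96 (1.47 to 2.61). OAS2 had 8 and 34 fragments in HT-29 and 0 and 0 in NCM460, and rose in HT-29 by 1.65 (0.72 to 3.18). OASL, a family member without the synthetase activity, had 14 and 45 fragments in HT-29 and 3 and 5 in NCM460, and rose in HT-29 by 1.34 (0.56 to 2.43). The calls of OAS2 and OASL were lost at equal nuclear depth. OAS3 had 213 and 320 fragments in HT-29 and 25 and 26 in NCM460. Its HT-29 value of 0.35 (0.10 to 0.61) had an interval above 0 but did not pass 1.5-fold. Per length OAS3 was the highest of the family in the HT-29 control, at 14.9 FPKM beside 7.98 FPKM for OAS1, and with SCS OAS1 was above it, at 32.9 and 16.5 FPKM.

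The double-stranded RNA enzymes differed from each other. EIF2AK2, which encodes the translation-blocking kinase PKR, had 154 and 275 fragments in HT-29 and 7 and 36 in NCM460. It rose in NCM460 by 1.67 (0.70 to 3.30), and in HT-29 its change of 0.60 (0.31 to 0.90) was just over 1.5-fold. Both calls were lost after GC correction, with 0.61 in NCM460 and 0.35 in HT-29. Both were also lost on deposited FPKM, where the values were 0.20 in NCM460 and -0.0654 in HT-29. The HT-29 call was lost with DESeq2 size factors and with nuclear totals as well. ADAR, which edits adenosines in double-stranded RNA, had 439 and 577 fragments in HT-29 and 156 and 171 in NCM460. It was called neither in HT-29 (0.16, -0.02 to 0.34) nor in NCM460 (-0.34, -0.66 to -0.02), and its level was 26.8 and 26.8 FPKM in HT-29 and 35.1 and 30.0 FPKM in NCM460.

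The membrane restriction factors did not move alike. The IFITM1/IFITM2 locus had 69 and 19 fragments in HT-29 and 48 and 43 in NCM460. It was the 1 member locus that fell in HT-29 (-1.98, -2.91 to -1.34), and it kept that call in all 9 alternatives. It also fell in NCM460 (-0.61, -1.26 to -0.01), a call close to the threshold that was lost in 4 of 9 alternatives, with 0.0595 when totals alone were used. IFITM3, which acts in endosomes, had 18 and 37 fragments in HT-29 and 266 and 182 in NCM460. Its HT-29 change (0.75, -0.04 to 1.71) was not called, but was after GC correction (0.81). In NCM460 it fell, at -1.01 (-1.30 to -0.74), and was not called after GC correction (-0.49) or with totals only (-0.32). The 3 IFITM genes are close paralogs, and how reads were divided among them was not tested. The study's own list gives IFITM1 a smaller fall with SCS in HT-29, of less than 1.5-fold. The reason for this gap was not tested. BST2, which encodes tetherin and holds budding virus at the cell surface, had 86 and 93 fragments in HT-29 and 1 and 0 in NCM460, and was not called in HT-29 (-0.12, -0.56 to 0.32).

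ISG15, a ubiquitin-like modifier, had 60 and 117 fragments in HT-29 and 23 and 43 in NCM460. It rose in HT-29 (0.71, 0.27 to 1.21), a call lost in 3 alternatives, among them nuclear scaling by totals with 0.57. The NCM460 value was 0.40 (-0.33 to 1.23), and 1.06 after GC correction, where it was called. USP18, the protease that removes ISG15, had 5 and 5 fragments in HT-29 and 4 and 5 in NCM460. HERC6, a ligase of the HERC family, had 13 and 23 fragments in HT-29 and 1 and 7 in NCM460. Neither was called in either line.

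Among the TRIM ubiquitin ligases, TRIM25, which modifies RIG-I, had 135 and 427 fragments in HT-29 and 78 and 49 in NCM460. It rose in HT-29 (1.42, 1.15 to 1.72) and fell in NCM460 (-1.11, -1.69 to -0.61). TRIM21, a cytosolic antibody receptor, had 16 and 24 fragments in HT-29 and 13 and 5 in NCM460. Its HT-29 value was 0.32 (-0.62 to 1.36), and in NCM460 it fell (-1.48, -3.69 to -0.27). Both NCM460 calls held after GC correction, at -0.93 and -1.32, and both were lost with totals as the only scaling, at -0.44 and -0.93.

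PARP14 rose in both lines. This ADP-ribosyltransferase (chr3:122680618-122730840) had 149 and 449 fragments in HT-29 and 0 and 21 in NCM460. In HT-29 the change was 1.35 (1.09 to 1.64). In NCM460 it was at least 5.04-fold higher with SCS, with a lower counting limit of 1.91 on the log2 scale. Its neighbour PARP9, also of the ADP-ribosyltransferase family, had 50 and 82 fragments in HT-29 and 0 and 1 in NCM460, and was not called in HT-29 (0.47, -0.04 to 1.02). PARP14 and TRIM25 added 114 and 112 CPM to the rise of the summed level in HT-29, more than any other member.

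The GTPases were nearly undetected in NCM460. MX1, a dynamin-like protein that traps viral nucleocapsids, had 12 and 56 fragments in HT-29 and 0 and 0 in NCM460, and rose in HT-29 by 1.84 (1.07 to 3.03). GBP2, a guanylate-binding protein whose values are shared with GBP7, had 22 and 58 fragments in HT-29 and 0 and 1 in NCM460, and rose in HT-29 by 1.10 (0.44 to 1.95). GBP1 had 2 and 6 fragments in HT-29 and 0 and 0 in NCM460 and was not called.

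Of the 5 IFI genes 1 rose in HT-29, near the 16.8% of all compared loci that did. IFI27, a small hydrophobic membrane protein, had 24 and 69 fragments in HT-29 and 0 and 0 in NCM460, and its HT-29 change was 1.23 (0.60 to 2.03). IFI6, of the same family, had 18 and 37 fragments in HT-29 and 4 and 5 in NCM460. Its HT-29 value was 0.75 (-0.04 to 1.71), which was not called, and 0.81 after GC correction, which was. IFI35 had 15 and 16 fragments in HT-29 and 2 and 0 in NCM460, IFI44 had 22 and 19 and then 1 and 0, and IFI44L had 5 and 3 and then 0 and 0. These last 3 had HT-29 log2 fold changes of -0.12, -0.40 and -0.64, each with an interval that held 0.

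Of the other effectors, ISG20, an exonuclease that degrades RNA, had 8 and 61 fragments in HT-29 and 8 and 2 in NCM460. Its HT-29 rise of 2.45 (1.63 to 3.97) was next to that of DDX58. In NCM460 it fell, at -1.63 (-5.75 to -0.15), a call lost after GC correction (-1.31) and in 2 other alternatives. SAMD9, a cytosolic factor that restricts poxviruses, had 42 and 177 fragments in HT-29 and 0 and 2 in NCM460, and rose in HT-29 by 1.80 (1.35 to 2.36). XAF1 had 0 and 1 fragments in HT-29 and 0 and 0 in NCM460 and was not compared.

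**Figure D3:**
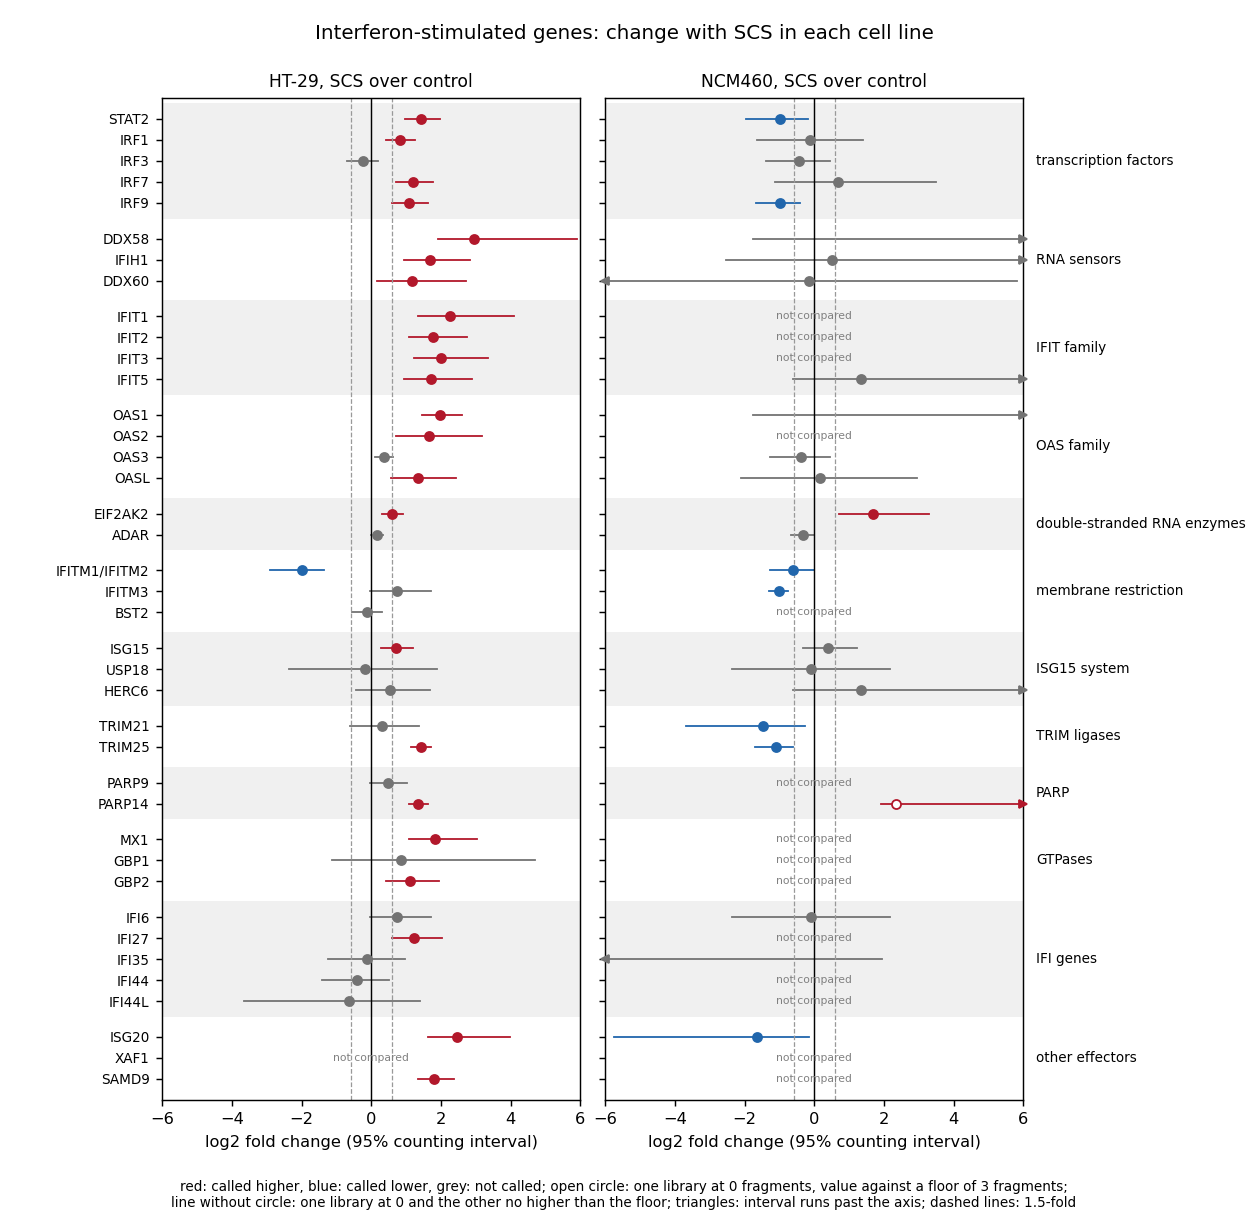
log2 fold change with SCS over control for each interferon-stimulated locus in HT-29 (left) and NCM460 (right), with the 95% counting interval as a bar. Red points are called higher (23 in HT-29, 2 in NCM460), blue points are called lower (1 and 7; with totals as the only scaling 0 are lower in NCM460), grey points are not called, and open points are set against the floor of 3 fragments.

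Without SCS, HT-29 and NCM460 differed in both directions, gene by gene. Comparisons between the lines share their libraries with the SCS comparisons, so their values stand side by side and are not independent. Of the 36 loci compared 14 were higher in HT-29 (38.9%), beside 25.3% of all 12691 compared loci, and 5 were lower (13.9%), beside 23.1%. The median was 1.52, or 0.81 with loci at 0 set to their bound, and 0.10 for all loci. Many passed the filter through HT-29 alone, since 11 of the 14 had 3 fragments or fewer in the NCM460 control. Among the 15 loci above the floor in both controls, 3 were higher and 5 lower, with a median of -0.59. With totals as the only scaling 25 loci were higher and 2 lower, beside 50.75% and 8.87% of all loci, whose median shifted to 1.13. At equal nuclear depth 14 were higher and 2 lower, beside 28.8% and 14.1% of all loci, with their median at 0.42.

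PARP14 was at least 18.9-fold higher in the HT-29 control, from 149 fragments against 0. BST2 had 86 against 1 fragments, a log2 ratio of 4.01 (2.52 to 10.35), and EIF2AK2 had 154 against 7, with 2.88 (1.99 to 4.40). PARP9 was at least 6.34-fold higher, SAMD9 at least 5.33-fold and OAS1 at least 4.19-fold. These 3 were at 0 in the NCM460 control. IRF7 was higher by 2.12 (0.84 to 4.81) and IFI44 by 2.17 (0.44 to 8.43), the latter with 1 fragment in NCM460 and no call after GC correction. The other 6 that were higher were IFI27, IFIT2, OAS3, IRF1, MX1 and GBP2, of which IFIT2 lost its call after GC correction and MX1 with DESeq2 size factors.

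In the other direction IFITM3 stood out, with 8.80 CPM in the HT-29 control and 342 CPM in the NCM460 control, a log2 fold change of -5.07 (-6.06 to -4.59). IRF9 was also lower in HT-29, at -1.65 (-2.31 to -1.12). IFITM1/IFITM2 (-0.84, -1.42 to -0.31), STAT2 (-0.74, -1.47 to -0.06) and TRIM25 (-0.59, -1.01 to -0.18) were lower by less. The calls of these 3 were lost after GC correction. With totals only their values were 0.22, 0.30 and 0.49, a change of sign that follows from the shift of all loci (median from 0.10 to 1.13). IFITM3 and IRF9 kept their calls in all 9 alternatives. ISG15 (-0.01, -0.73 to 0.75) and ADAR (0.10, -0.17 to 0.37) were not called, and ISG15 was called higher in HT-29 after GC correction (0.98).

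With SCS the excess in HT-29 covered most of the set. Of 37 compared loci 29 were higher in HT-29 (78.4%), beside 24.2% of all 13050 compared loci, and 2 were lower (5.41%), beside 22.4%. The median was 2.43, or 2.25 with loci at 0 at their bound, and 0.05 for all loci. Here 17 of the 29 had 3 fragments or fewer in NCM460 with SCS. Among the 19 loci above the floor in both libraries 12 were higher and 2 lower, with a median of 1.52. Totals-only scaling gave 32 higher and 2 lower, beside 40% and 12.3% of all loci, with their median at 0.63.

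SAMD9 had a log2 ratio of 4.64 (3.44 to 8.37), from 177 fragments in HT-29 and 2 in NCM460. PARP9 had 4.09 (2.69 to 10.53) and OAS1 4.08 (2.98 to 6.85). GBP2 had 3.61 (2.17 to 10.03), IFIT2 3.32 (2.05 to 7.03) and PARP14 3.19 (2.64 to 3.97). All but PARP14 rest on 3 fragments or fewer in NCM460, and their upper limits are wide. BST2 was at least 14.0-fold higher in HT-29 and IFI27 at least 10.4-fold, and as lower bounds these have no place in the order of the others. The IFITM loci kept the opposite order, with -3.36 (-4.00 to -2.93) for IFITM3 and -2.18 (-3.19 to -1.52) for IFITM1/IFITM2. The 6 compared loci that were not called were ISG15, IRF9, GBP1, USP18, HERC6 and TRIM21.

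**Figure D4:**
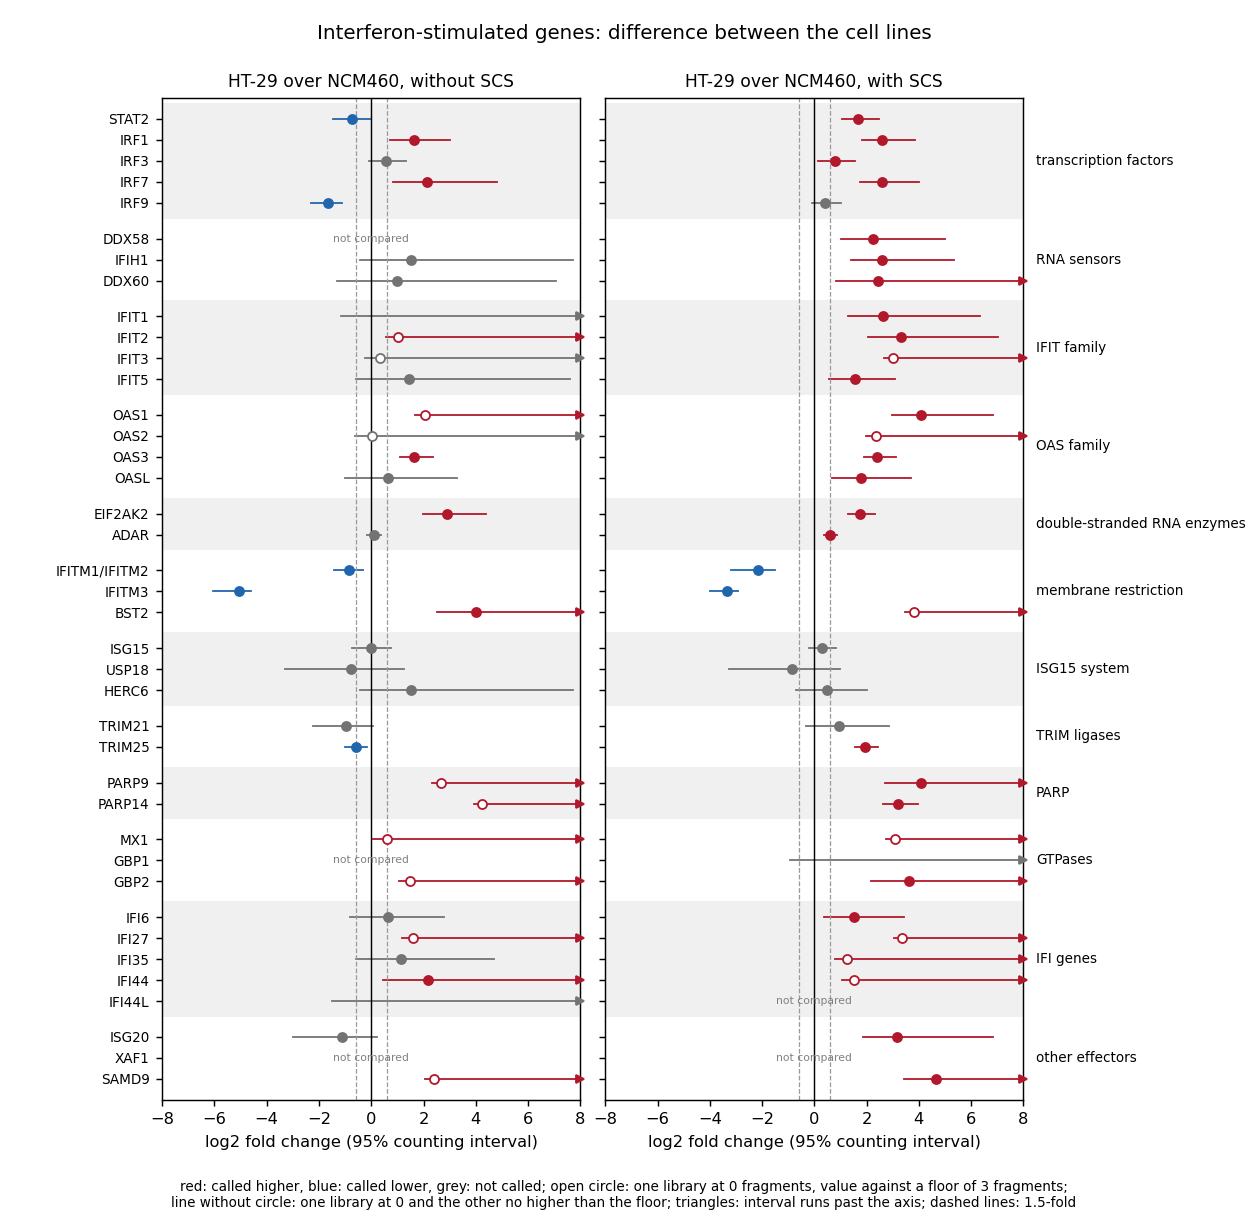
log2 fold change of HT-29 over NCM460 for each interferon-stimulated locus, without SCS (left) and with SCS (right), with the 95% counting interval as a bar. Red points are higher in HT-29 (14 without and 29 with SCS), blue points are lower (5 and 2; with totals as the only scaling 2 and 2), and open points are loci at 0 fragments in NCM460, set against the floor of 3 fragments.

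Counts of the further lists are read beside all compared loci, of which 16.8% rose and 14.8% fell in HT-29 and 15.3% rose and 13.7% fell in NCM460. These lists, too, were chosen with earlier results of these data known. The ligands that start the pathway were at the limit of detection. Of 10 interferon genes 2 had any fragments, IFNB1 with 1 and 0 in HT-29 and IFNE with 2 and 3. All 10 were at 0 in both NCM460 libraries. The 6 receptor genes had fragments in all 4 libraries, and with SCS 2 of 5 receptor loci rose in HT-29 and 0 fell. These were the locus shared by IFNAR2 and IL10RB, with 12 and 38 fragments (1.30, 0.46 to 2.50), and IFNGR1, with 31 and 65 (0.8, 0.2 to 1.5), whose call was lost after GC correction (0.58). In NCM460 0 of 5 receptor loci were called.

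Of the kinases, STATs and inhibitors that carry the receptor signal, 2 of 10 rose in HT-29, near the 16.8% of all loci. JAK1, the kinase shared by the interferon receptors, had 111 and 396 fragments in HT-29 and 18 and 39 in NCM460, and rose in HT-29 by 1.59 (1.30 to 1.92). PTPN2, a phosphatase that restrains the cascade, rose in HT-29 from 40 to 74 fragments (0.63, 0.08 to 1.25), a call lost after GC correction (0.41). In NCM460 3 of 11 rose and 2 fell. SOCS3, a feedback inhibitor, fell there from 18 to 8 fragments (-1.40, -3.05 to -0.37), which was not called after GC correction (-0.79).

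Among genes of nucleic acid sensing and its adaptors 1 of 11 rose in HT-29 and 1 of 9 in NCM460, no larger a share than among all loci (16.8% and 15.3%). In both lines it was TBK1, the kinase that activates IRF3, with 24 and 50 fragments in HT-29 (0.78, 0.10 to 1.59) and 1 and 10 in NCM460 (1.73, 0.03 to 8.29). Both calls were lost after GC correction, at 0.54 and 0.71. Of class I presentation loci, which interferons also induce, 6 of 11 rose in HT-29 and 0 fell, with a median of 0.71. NLRC5, the class I transactivator, led with 6 and 73 fragments (3.03, 2.18 to 4.87). In NCM460 1 of 10 rose and 2 fell, with a median of -0.29. B2M rose from 41 to 102 fragments (0.82, 0.31 to 1.40), and was not called after GC correction (-0.11).

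A list of 21 other interferon-stimulated genes outside the members gave 7 of 17 rises and 0 falls in HT-29, with a median of 0.81. RSAD2, which encodes the antiviral enzyme viperin, was at least 5.39-fold higher with SCS, from 0 to 19 fragments. TRIM5, a capsid-binding factor, had the smallest of these rises, from 27 to 56 fragments (0.78, 0.13 to 1.54). In NCM460 4 of 11 rose and 2 fell, with a median of 0.77. SP100, a nuclear body protein, rose from 2 to 17 fragments (1.92, 0.54 to 5.77), which was not called after GC correction (1.17). Of the 4 rises only that of UBE2L6, from 6 to 23 fragments (1.25, 0.13 to 3.05), was still called after it (1.78). PML, the organiser of the same bodies, fell from 48 to 26 fragments (-1.28, -2.11 to -0.64), and was still called lower after the correction (-0.72).

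Between the lines the same lists differed in both directions, given as HT-29 over NCM460 with HT-29 fragments first. Of all loci 25.3% were higher and 23.1% lower without SCS, and 24.2% and 22.4% with it. Called loci at 0 in NCM460 have a lower bound only, so the genes named as higher need not be the highest of their lists. Without SCS, 1 of 5 receptor loci was higher in HT-29 and 2 were lower, with IFNGR1 at 2.06 (0.59 to 5.67), from 31 and 2 fragments, and IFNLR1, the lambda receptor chain, at -2.16 (-4.28 to -1.15), from 6 and 14. In receptor signalling 5 of 10 were higher and 2 lower, the lowest of them SOCS3 at -3.69 (-10.94 to -2.90), with 1 and 18 fragments. In sensing 2 of 10 were higher and 1 was lower, among them TBK1 at 2.28 (0.58 to 8.55), with 24 and 1 fragments, and the adaptor TICAM1 at -1.63 (-2.65 to -0.88), with 21 and 27. In class I presentation 2 of 11 were higher and 2 lower, among them B2M at 2.19 (1.76 to 2.71), with 501 and 41 fragments, and HLA-B at -2.76 (-3.19 to -2.43), with 82 and 218 and values shared with HLA-C. Of the other interferon-stimulated genes 5 of 13 were higher and 1 lower, among them SP100 at 2.36 (0.94 to 5.99), with 39 and 2 fragments, and PML at -2.21 (-3.09 to -1.61), with 25 and 48. The calls of IFNGR1, TBK1 and TICAM1 were lost after GC correction, at 0.86, 1.01 and -0.66.

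With SCS, 2 of 5 receptor loci were higher in HT-29 and 1 was lower, with IFNAR1 at 1.61 (0.68 to 3.03), from 60 and 8 fragments, and IFNLR1 at -1.98 (-5.26 to -0.73), from 3 and 9. In receptor signalling 3 of 11 were higher and 1 lower, from JAK1 at 2.16 (1.72 to 2.71), with 396 and 39 fragments, to SOCS3 at -2.11 (-6.42 to -0.83), with 2 and 8. In sensing 6 of 11 were higher and 1 was lower, among them the ubiquitin ligase TRAF6 at 2.23 (0.83 to 5.91), with 31 and 2 fragments, and TRAF3 at -0.91 (-1.73 to -0.19), with 33 and 29. In class I presentation 7 of 11 were higher and 1 lower, from PSMB8, a subunit of the immunoproteasome, at 3.43 (1.98 to 9.85), with 51 and 1 fragments, to HLA-B at -1.54 (-1.87 to -1.26), with 159 and 211. Of the other interferon-stimulated genes 8 of 17 were higher and 1 lower, among them PLSCR1, a phospholipid scramblase, at 3.73 (2.61 to 6.49), with 122 and 3 fragments, and UBE2L6, the conjugating enzyme for ISG15, at -1.01 (-1.98 to -0.20), with 24 and 23. These 10 calls were kept after GC correction.

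The cell identity of the libraries was checked with marker lists. Of 11 colon epithelial markers 9 had fragments, and their summed level was 6458 and 3342 CPM in HT-29 and 4346 and 2659 CPM in NCM460. The single markers did not move alike with SCS. In HT-29 7 were compared, of which CDH1 (0.74) and KRT20 (1.12) rose and 4 fell. In NCM460 6 were compared, of which EPCAM (1.29) rose and 3 fell. The 3 were KRT8, KRT18 and KRT19, and none was called after GC correction (-0.31, -0.56 and 0.01), whereas EPCAM was (1.06). Per length KRT8 was the highest of the epithelial markers in both HT-29 libraries and KRT19 in both NCM460 libraries. KRT20 and VIL1 were at 0 in both NCM460 libraries, CDX2 was at 0 in both HT-29 libraries, and CDX1 and GPA33 were at 0 in all 4. Of 8 leukocyte markers 4 had fragments, and PTPRC, CD3E and CD14 were among those at 0 in all libraries. The leukocyte list summed to 616 and 393 CPM in HT-29, mostly from LYZ and CD68, and to 607 and 578 CPM in NCM460, from CD68 in the control and almost only from it with SCS. The values of CD68 are shared with EIF4A1 and SENP3. Of 7 stromal markers 4 had fragments, and they summed to 3.91 and 3.75 CPM in HT-29 and 37.2 and 26.8 CPM in NCM460, with COL1A1 or ACTA2 the highest per length. COL1A2, COL3A1 and LUM were at 0 in all libraries. The 3 endothelial markers reached no more than 3 fragments in any library and summed to 1.47 and 0 CPM in HT-29 and 1.28 and 1.85 CPM in NCM460. The part of these marker levels, and of the mitochondrial share, in the values of the interferon-stimulated genes was not tested.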

How the data were processed

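RNA-seq was analysed from 4 libraries, 1 for each of 4 conditions. The study's methods name Cuffdiff, and the submitters' processing notes name bcl2fastq 2.17.1.14, cutadapt 1.9.1, Bowtie2 and HTSeq 0.6.1. The notes also name hg19, whereas the coordinates in the table are those of GRCh38, which are used here. The deposited count columns are not whole numbers but a signal, in which fragment counts were divided by a library-wide factor before the authors deposited them. The deposited FPKM columns give a level per transcript length and library size.

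The design had assumed whole counts. Division by the worth of 1 fragment (0.686, 0.577, 2.04 and 1.33) gave whole numbers, within 0.01, for 99.8%, 99.7%, 99.8% and 99.7% of values above 0, and these fragments were used. The 26 of 64962 rows without a gene name, with at most 0.0352% of a library, were left out. Adjacent rows with identical values were merged into 18650 loci, of which 1812 hold several genes; IFITM1 with IFITM2, IRF9, GBP2 and TRIM25 are among them. TMM factors came from edgeR 4.0.16 in R 4.3.3. Count tests of the recovered fragments over all 4 libraries, with cell line and SCS as additive terms (1 residual degree of freedom) and a mean of at least 1 CPM, were added after seeing the data. At a false discovery rate of 5%, edgeR's quasi-likelihood test called 9 of 12942 loci for SCS and 2099 for the line, and DESeq2 35 of the 1400 and 875 of the 10182 loci to which it gave an adjusted p-value. Fits within a line leave no residual degree of freedom. Other steps ran in Python 3.11.15 with numpy 2.4.6, pandas 2.3.3, scipy 1.17.1, statsmodels 0.14.6 and matplotlib 3.10.9. GC content is that of the longest GENCODE transcript and was found for 98.9% of loci. The calls were tested on simulated counts.

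Values in all libraries were given for up to 8 called members with the highest and lowest changes in each comparison and the 5 with the highest mean FPKM. Of each further list the highest and lowest called gene was named in each comparison, except for a few that were left out. Loci at 0 in a library entered this choice at their lower bound. All other members were named so that each of the 40 is accounted for. The members and lists were chosen with earlier results of these data known. The alternatives planned were DESeq2 1.42.0 size factors, totals only, nuclear fragments thinned to 507692, a prior count of 0.5, at least 1 count in either library, a mean of at least 5 CPM, a lowess GC trend (span 0.3) subtracted, and deposited FPKM with a pseudocount of 0.1. Nuclear totals without thinning, and leaving out loci shared with another gene, were added after seeing the data.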

Additional observations from a re-analysis of the deposited data

Results flagged for a closer look

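For 4 loci the change with SCS was called in opposite directions in the 2 lines, higher in HT-29 and lower in NCM460. These are 4 of 25 loci compared in both lines (16%), beside 204 of 10849 among all loci (1.88%), and opposite calls the other way were 0 of 25 beside 214 (1.97%). The difference between the lines was not tested, since each condition has 1 library. For ISG20 the log2 fold changes of 2.45 in HT-29 and -1.63 in NCM460 lay 4.09 apart, and the NCM460 value rests on 8 and 2 fragments. TRIM25, with 1.42 and -1.11, had a difference of 2.53. The gap was 2.40 for STAT2, from 1.42 and -0.98, and 2.07 for IRF9, from 1.08 and -0.99. After subtraction of the GC trend the NCM460 values were -1.31 for ISG20, -0.93 for TRIM25, -0.89 for STAT2 and -0.53 for IRF9. Those of TRIM25 and STAT2 were then still called lower, and those of ISG20 and IRF9 were not. The fall of STAT2 was not called at equal nuclear depth (-0.83) or on deposited FPKM (-0.56). With totals as the only scaling none of the 4 was called in NCM460, and which scaling is closer to the true levels was not tested. Of 9 alternatives the NCM460 call was kept in 8 for TRIM25, 7 for IRF9, 6 for ISG20 and 6 for STAT2. IRF9 and TRIM25 share their values with overlapping genes.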

How the results depend on the processing

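In HT-29 the number of members that rose with SCS stayed between 18 and 27 over the 10 alternatives. The 18 were at equal nuclear depth, beside 8.57% of all loci, and the 27 with totals only, beside 24.9%. On deposited FPKM, which has no counting interval, 4 were lower in place of 1, beside 30.6% of all loci in place of 14.8%. Without loci shared with another gene 0 were lower, since the 1 lower locus is shared. In NCM460, totals only gave 5 higher and 0 lower in place of 2 and 7, FPKM gave 6 higher and 10 lower (25.2% and 41.4% of all loci), the GC trend left 3 lower, and leaving out shared loci left 4. Between the lines without SCS, 14 higher became 25 with totals only and 23 on FPKM, which gave 7 lower (27.5% and 46.2% of all loci). The 5 lower became 2 with totals only, at equal nuclear depth, with nuclear totals, with the GC trend and without shared loci. With SCS, 2 lower became 1 without shared loci. Totals only moved the median of all compared loci to 0.31 for SCS in HT-29, 0.63 for SCS in NCM460, and 1.13 and 0.63 between the lines. At equal nuclear depth it was 0.19 for SCS in NCM460 and 0.42 between the lines without SCS, and with nuclear totals 0.23 and 0.43, and -0.07 for SCS in HT-29. On FPKM the 4 medians were -0.13, -0.34, -0.42 and -0.33.

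Single calls took the other sign for IFITM1/IFITM2 in NCM460 (0.0595) and between the lines without SCS (0.22), STAT2 (0.30) and TRIM25 (0.49) between the lines without SCS, all with totals only, and on FPKM for EIF2AK2 in HT-29 (-0.0654) and ADAR between the lines with SCS (-0.17). The changes of sign with totals only follow from its shift of all loci, and the cause of the 2 on FPKM was not tested. Of the calls, 16 of 23 rises in HT-29, 1 of 2 rises and 0 of 7 falls in NCM460, 11 of 14 and 2 of 5 between the lines without SCS, and 25 of 29 and 2 of 2 with SCS held in each alternative in which the locus was compared.

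Depth limits NCM460 most. With 507692 and 621582 nuclear fragments, 24 and 20 of 39 loci had 3 fragments or fewer there. For the 19 loci with 3 or fewer in both NCM460 libraries, changes with SCS were not detectable. A paired fit of SCS over the 2 lines, with cell line as a block, called 0 of 36 member loci with edgeR, and with DESeq2 0 of the 4 that got an adjusted p-value, at a false discovery rate of 5%.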
